A study of Homo sapiens with 71 samples.

Results

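Cells given surface water from the site coded JRMI were compared with cells given purified water. The comparison covered only the 31012 entries held, whose symbols sort before RAI14, and features with few counts were not tested. Members were taken by the site label of each library: 4 libraries carried JRMI and 8 were the purified water controls, so 12 of the 71 libraries entered the comparison and the other 59 came from 15 further Great Lakes tributary sites. All libraries came from HepG2, a single human hepatoma line. Pooled flasks were spread over dishes, and after 72 hours of preculture each dish was exposed for 48 hours. In the JRMI dishes 75% of the exposure medium was site water filtered at 0.7 µm, and in the control dishes the same share was ultrapure water filtered at 0.1 µm. Both kinds of medium held the same concentrated stock with serum, antibiotics and normocin. The labels call the dishes biological replicates, but they came from a pool of cells and a water sample per site, so p values measure the spread between dishes. The growth protocol speaks of 16 control dishes; 8 control libraries were used here.

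HepG2 cells keep many liver functions, among them the secretion of plasma proteins, the urea and bile acid enzymes in part, and the response of metallothioneins to metals. Metallothioneins are small cysteine-rich proteins that bind zinc, copper and cadmium, and their genes are switched on by the metal-sensing factor MTF1. YAP is a coactivator that works with TEAD factors when Hippo signalling is low, for example in spread or mechanically loaded cells, and ANKRD1 and CCN2 are among its best known targets. RNA was assayed with TempO-Seq, in which pairs of short probes bind next to each other on an RNA and are joined and counted by sequencing. A value therefore reflects the probed stretch of a transcript and not its whole length. For that reason levels are compared here within a gene and not between genes.

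Library totals were between 4432952 and 6678666 counts in the JRMI libraries and between 8183185 and 14519869 counts in the controls, and did not overlap. What part this difference in depth had in the results was not tested. Levels are given as CPM, counts scaled to a common library total. The 14 measured HepG2 hepatocyte identity markers (ALB, AFP, AHSG and others) were all detected and summed to between 178992 and 223113 CPM at JRMI against 159098 to 221226 in controls. Of 16 immune cell markers 5 were at 0 (PTPRC, CD163, FCGR3A, MS4A1, MARCO), and the list's sum of 2159 to 2653 CPM at JRMI and 1509 to 2105 in controls was nearly all LYZ. The 11 fibroblast markers summed to between 40.1 and 43.6 CPM at JRMI and 38.0 to 61.5 in controls. Most of this was ACTA2, at 32.4 to 38.5 and 31.8 to 55.2 CPM, and PDGFRB was at 5.01 to 6.52 and 3.79 to 6.33. The 9 endothelial markers summed to between 1.67 and 4.63 CPM at JRMI and 2.46 to 4.21 in controls, with CDH5 and PECAM1 reaching 2.70 and 2.16. LRAT of the first list and KDR and CLDN5 of the second were at 0.

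JRMI 2 stood apart from the other JRMI libraries. In JRMI 2, 76 of the 4142 features with at least 10 CPM in the other JRMI libraries were at least 3 log2 units below the mean of those libraries, which is 1.83% of them. The other JRMI libraries and the controls each had between 0 and 2 such features. PCMTD1, a protein repair methyltransferase homologue, was at 0 CPM in JRMI 2 and at 113, 120.5 and 102 CPM in JRMI 1, 3 and 4. The cyclin CCNI was at 8.59 CPM in JRMI 2 against 465, 140.1 and 188 CPM, and LGR5, a receptor for R-spondins in WNT signalling, at 3.34 CPM against 74.0, 34.5 and 49.0 CPM. These features went down together in other libraries too. Of the 76, 75 were also low in CRMI 1, 28 in LRMN 4, 24 in FRWI 1 and 23 in GRNY 2, which is 11.8%, 90.3%, 70.6% and 71.9% of the low features of those libraries. None of them was low in SRMI 3, which had 102 low features of its own.

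The low features did not split libraries into affected and unaffected ones but varied over most of the series. Their median in JRMI 2 was -3.50 log2 units from the other JRMI libraries, and in CRMI 1 it was -5.61 from the other CRMI libraries. In CTRL 1 the median of the same features was -1.22 from the other controls with 75 of the 76 below, and in CTRL 6 it was -0.41 with 75 of the 76 below, while in CTRL 4 all of them were above the other controls. JRMI 1 was at the other end of its group, with a median of 1.85 and none of the 76 below. None of the 76 features passed the test between JRMI and control described next. They were picked for a wide spread among the JRMI libraries, which makes passing unlikely, so this does not show that the calls are free of JRMI 2. Each result that follows was also computed without JRMI 2.

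**Figure D1:**
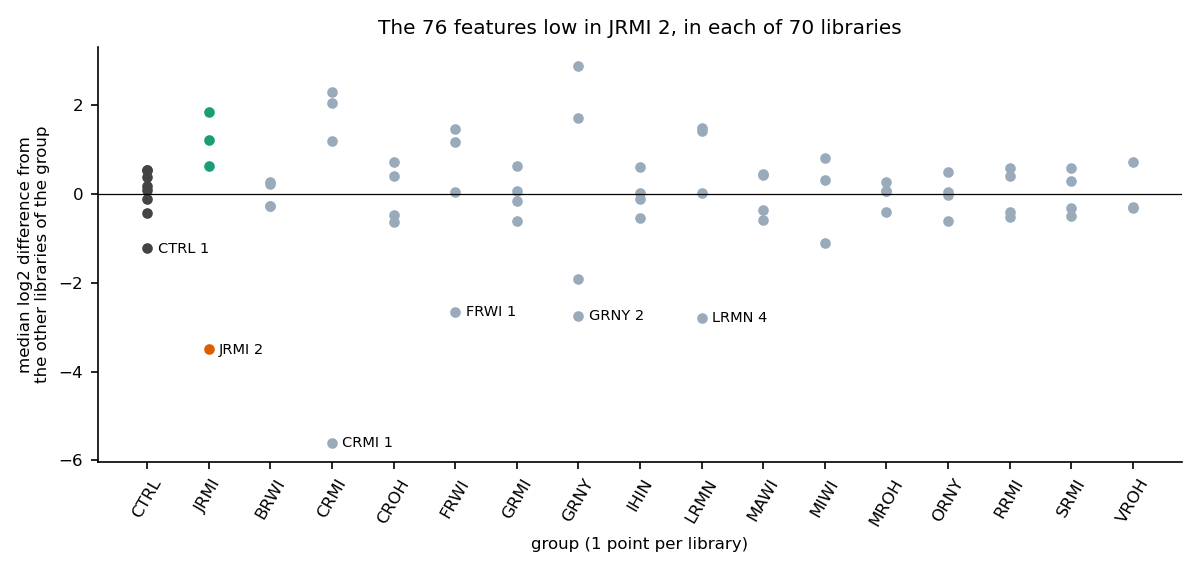
Median log2 difference of the 76 features low in JRMI 2 from the other libraries of the same group, 1 point per library over 70 libraries (horizontal axis: group by site code, CTRL = purified water). JRMI 2 lies at -3.50 and CRMI 1 at -5.61; LRMN 4, GRNY 2 and FRWI 1 lie between -2.65 and -2.80, and CTRL 1 at -1.22.

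Against purified water, 76 of 6943 features tested (1.09%) passed an adjusted p of 0.05 by edgeR's quasi-likelihood test with Benjamini-Hochberg adjustment. Of these, 48 were higher at JRMI (0.691%) and 28 lower (0.403%). Rises were small and lay in well measured genes. Their median log2 change was 0.46, the median control level was 158 CPM, and no rise reached 1 log2 unit. Falls were larger and had a lower median level than the rises. Their median log2 change was -0.82 at a median control level of 14.04 CPM, against 17.5 CPM over all features, and 5 of the 28 fell by 1 log2 unit or more. All 76 had their 4 JRMI libraries on 1 side of the control mean. In 60 of the 76 the 4 JRMI libraries lay outside the range of the 8 controls, as they did in 3.96% of all features tested (2.06% above and 1.9% below).

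The number of calls rested on single libraries and on which libraries shared the fit. Left out one at a time, JRMI 2 took the count to 13 (0.187% of the features tested in that fit), JRMI 1 to 24, JRMI 3 to 28 and JRMI 4 to 41 features, CTRL 5 to 25 and CTRL 6 to 47. Adding VROH 2, a library with only 8840 counts, to the fit left 9 of the 76 (0.13% of the features tested): ALKBH8, ANKRD65, CFAP70, GPD1, HBEGF, HEMK1, MT1M, NPNT and PYCR3. Leaving out CRMI 1 and SRMI 3 as well gave 201 (2.91%), all 76 among them, and leaving out JRMI 2 besides gave 72 (1.04%), with 44 of the 76 among them. Without JRMI 2, all 76 kept their direction with a median of 0.93 times the log2 change (0.63 to 1.19), and 12 still passed: ALKBH8, AMY2A, CCL20, CFAP70, DLC1, GLUL, GPD1, HBEGF, MRPS6, MT1G, MT1M and PYCR3. Of the 76, 5 passed in each of the 12 fits that left out 1 JRMI or control library: CCL20, GPD1, HBEGF, MRPS6 and PYCR3.

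JRMI 2 was the highest of the JRMI libraries in 34 of the 48 rises (70.8%), against 37.5% of all features tested, and the lowest in 6 of the 28 falls (21.4% against 34.5%). CTRL 5 was the control farthest from JRMI on these genes: its median over the 48 rises was -0.28 and over the 28 falls 0.24 log2 units from the other controls. What part either library had in the calls beyond the counts without them was not tested.

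**Figure D2:**
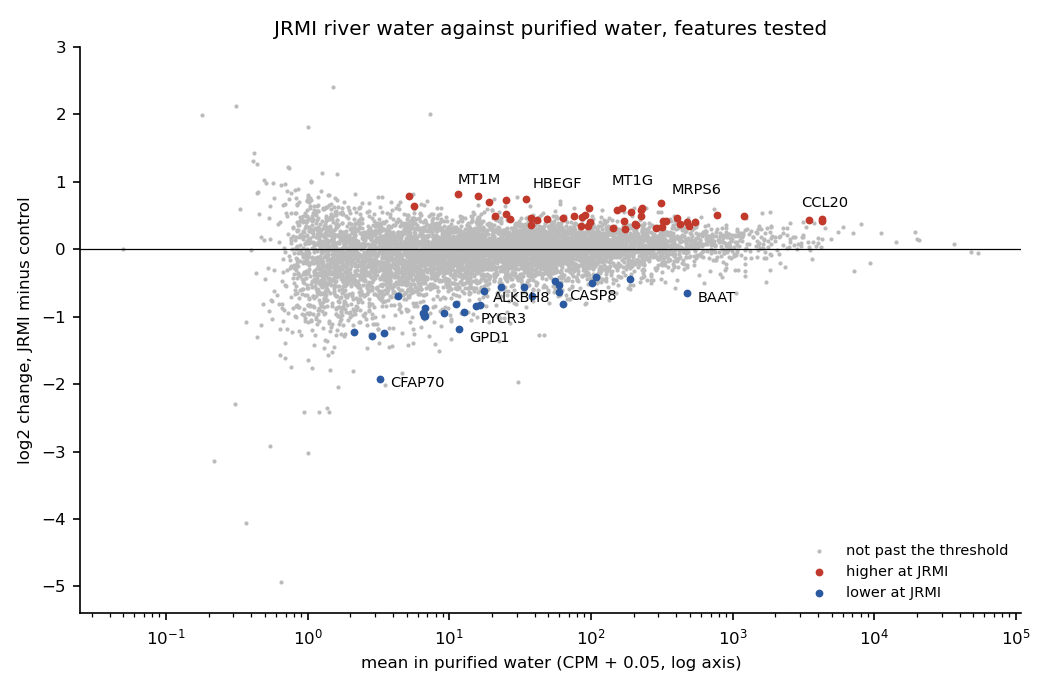
Log2 change of each of the 6943 features between JRMI and purified water (vertical axis) against the control mean (horizontal axis, CPM plus a small offset, log axis). The 48 rises (red) lie between 0.31 and 0.82 and mostly above 10 CPM; the 28 falls (blue) reach -1.92 at CFAP70 and have a lower median control level.

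The metallothionein genes MT1M and MT1G rose. MT1M measured 28.5, 25.8, 30.6 and 25.6 CPM in JRMI 1 to 4, against 10.3 to 22.2 CPM in the controls (median 15.3). MT1M rose by 0.79 ± 0.18 log2 units (SE; edgeR adjusted p = 0.0149). MT1G measured 373, 336, 326 and 319 CPM in JRMI 1 to 4, against 185 to 294 CPM in the controls (median 222). MT1G rose by 0.58 ± 0.13 log2 units (SE; edgeR adjusted p = 0.0110). In both genes every JRMI library lay above every control, and both still passed without JRMI 2, at 0.82 and 0.60. MT2A, the most widely expressed metallothionein in human tissues, measured 11.98, 11.7, 15.01 and 14.1 CPM in JRMI 1 to 4, against 6.08 to 10.4 CPM in the controls (median 9.04). Again the groups did not overlap, but its log2 change of 0.61 did not pass (edgeR adjusted p = 0.302). MT1X was low throughout, at 1.31, 0.716, 0.927 and 0.795 CPM in JRMI 1 to 4 against 0.119 to 0.676 CPM in the controls (median 0.346). Its log2 change of 1.31 did not pass (edgeR adjusted p = 0.204). MT1E did not separate the groups, at 17.9, 10.5, 17.2 and 15.9 CPM in JRMI 1 to 4 against 9.57 to 18.1 CPM in the controls (median 14.99), and MT1F stayed under 1 CPM in all 12 libraries. Over the list of metallothioneins and metal response genes, all 7 members tested had a log2 change above 0, as did 3302 of the 6943 features. MTF1 and MT1E had the smallest, at 0.04 and 0.09. The list's median was 0.58, against -0.02 over all features, and 2 of the 7 passed, where 1.09% of all features did. MT1 genes are close copies of one another, so reads could have been divided unevenly among them.

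Genes of secreted signals came next. HBEGF, a ligand of the EGF receptor that is released from the cell surface by shedding, measured 57.1, 66.8, 60.6 and 49.9 CPM in JRMI 1 to 4, against 22.9 to 41.2 CPM in the controls (median 35.04). HBEGF rose by 0.75 ± 0.14 log2 units (SE; edgeR adjusted p = 0.00413). The groups did not overlap, and CTRL 5 was the lowest control. CCL20, a chemokine that attracts lymphocytes and dendritic cells through CCR6 and a target of NF-kB, measured 5808, 5698, 5829.8 and 6161 CPM in JRMI 1 to 4, against 3659 to 4856 CPM in the controls (median 4402). CCL20 rose by 0.45 ± 0.09 log2 units (SE; edgeR adjusted p = 0.00748). It was the single member of the 15 inflammatory NF-kB targets tested that passed, where 1.09% of all features did, and the 4 JRMI libraries were within a narrow band above all controls. NPNT, an extracellular matrix ligand of an integrin, measured 25.04, 40.1, 26.5 and 32.1 CPM in JRMI 1 to 4, against 15.2 to 27.8 CPM in the controls (median 18.2). NPNT rose by 0.70 ± 0.14 log2 units (SE; edgeR adjusted p = 0.00748). JRMI 1 and JRMI 3 lay below the highest control, CTRL 1, and without JRMI 2 the log2 change was 0.56 and missed the threshold (edgeR adjusted p = 0.0875). NRN1, a small protein anchored to the cell membrane and best known from neurons, measured 9.80, 9.07, 8.53 and 7.63 CPM in JRMI 1 to 4, against 4.37 to 8.29 CPM in the controls (median 5.47). JRMI 4 lay below the highest control, and its rise of 0.64 did not pass in 11 of the 12 fits that left out 1 library.

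Nitrogen metabolism gave 3 rises among 24 members tested, where 0.691% of all features rose. GLUL encodes glutamine synthetase, which joins ammonia to glutamate, marks the hepatocytes around the central vein and is a WNT target in liver. It measured 257, 217, 230.4 and 206 CPM in JRMI 1 to 4, against 125 to 169 CPM in the controls (median 151). GLUL rose by 0.59 ± 0.13 log2 units (SE; edgeR adjusted p = 0.0114), with no overlap of the groups and a log2 change of 0.62 without JRMI 2. ARG1, the liver arginase that releases urea, measured 75.3, 58.7, 63.2 and 72.3 CPM in JRMI 1 to 4, against 40.1 to 60.5 CPM in the controls (median 48.6). ARG1 rose by 0.45 ± 0.12 log2 units (SE; edgeR adjusted p = 0.0407). ARG2, the mitochondrial arginase, measured 222, 347, 291 and 263 CPM in JRMI 1 to 4, against 121 to 227 CPM in the controls (median 199). ARG2 rose by 0.55 ± 0.15 log2 units (SE; edgeR adjusted p = 0.0427). In both arginases 1 JRMI library lay inside the control range, JRMI 2 for ARG1 and JRMI 1 for ARG2. Neither passed without JRMI 2 (edgeR adjusted p = 0.0673 and 0.282), though the log2 change of ARG1 was then larger, at 0.52. That of ARG2 was 0.44. The median log2 change of the list was 0.13. Besides GLUL, AXIN2, a feedback inhibitor of WNT signalling, measured 71.6, 112, 80.4 and 85.5 CPM in JRMI 1 to 4, against 53.97 to 69.8 CPM in the controls (median 63.5). AXIN2 rose by 0.47 ± 0.12 log2 units (SE; edgeR adjusted p = 0.0261). Without JRMI 2 it missed the threshold (edgeR adjusted p = 0.313). These were the 2 called among 11 WNT and beta-catenin targets tested, against 1.09% of all features called. Of the 11, 6 had a log2 change above 0, as did 3302 of the 6943 features.

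Of the 48 rises, GDA, the guanine deaminase of purine breakdown, had the largest log2 change, with 18.9, 23.9, 18.5 and 19.6 CPM in JRMI 1 to 4 against 7.84 to 13.3 CPM in the controls (median 12.3). GDA rose by 0.82 ± 0.22 log2 units (SE; edgeR adjusted p = 0.0486), and it lost its call in 11 of the 12 fits that left out 1 library. NCEH1, a hydrolase of cholesterol esters and other lipids, measured 235, 288, 256 and 233 CPM in JRMI 1 to 4, against 117 to 195 CPM in the controls (median 169). NCEH1 rose by 0.61 ± 0.13 log2 units (SE; edgeR adjusted p = 0.0114), and missed the threshold without JRMI 2 (edgeR adjusted p = 0.0865). MRPS6, a protein of the small mitochondrial ribosomal subunit whose gene shares its locus with the inositol transporter gene SLC5A3, measured 448, 602, 446 and 512 CPM in JRMI 1 to 4, against 231 to 381 CPM in the controls (median 311). MRPS6 rose by 0.69 ± 0.12 log2 units (SE; edgeR adjusted p = 0.00181). Without JRMI 2, the highest library, its log2 change was 0.60 and it still passed. SLC5A3 was not analysed here. KLB, the coreceptor through which FGF19 represses bile acid synthesis, measured 405, 506, 426 and 410.3 CPM in JRMI 1 to 4, against 274 to 367 CPM in the controls (median 321). KLB rose by 0.43 ± 0.09 log2 units (SE; edgeR adjusted p = 0.00748). BAAT, which joins bile acids to glycine or taurine, went the other way. It measured 338, 246, 308 and 328 CPM in JRMI 1 to 4, against 399.8 to 579 CPM in the controls (median 481). BAAT fell by 0.65 ± 0.16 log2 units (SE; edgeR adjusted p = 0.0235). Both bile acid genes separated the groups fully, and neither passed without JRMI 2 (edgeR adjusted p = 0.0832 and 0.166). Their log2 changes were then 0.36 and -0.55.

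The remaining rises named by rule held regulators and cytoskeletal genes. NR5A2, a nuclear receptor that drives bile acid and cholesterol genes in liver, measured 47.9, 49.6, 36.1 and 31.5 CPM in JRMI 1 to 4, against 18.6 to 32.5 CPM in the controls (median 24.8). NR5A2 rose by 0.72 ± 0.16 log2 units (SE; edgeR adjusted p = 0.0140). JRMI 4 lay just below the highest control. FMNL2, a formin that builds actin filaments, measured 342, 408, 332 and 320.2 CPM in JRMI 1 to 4, against 183 to 268 CPM in the controls (median 229). DLC1, a GTPase activating protein that switches off RhoA, measured 284, 257, 252 and 266 CPM in JRMI 1 to 4, against 182 to 227 CPM in the controls (median 204). DLC1 rose by 0.38 ± 0.09 log2 units (SE; edgeR adjusted p = 0.0155), and passed without JRMI 2. OPTN, an autophagy receptor, measured 1132, 1188, 1129 and 985 CPM in JRMI 1 to 4, against 609 to 952 CPM in the controls (median 787). ANXA13, a membrane-binding annexin, measured 9.15, 10.5, 8.53 and 7.79 CPM in JRMI 1 to 4, against 4.05 to 6.55 CPM in the controls (median 4.92). KIAA1958, a gene of unclear role, measured 177, 160.4, 132 and 129.6 CPM in JRMI 1 to 4, against 83.4 to 118 CPM in the controls (median 95.2). In FMNL2, DLC1, OPTN, ANXA13 and KIAA1958 no JRMI library reached down into the control range. Their log2 changes were 0.62, 0.38, 0.51, 0.79 and 0.62, with edgeR adjusted p of 0.00748, 0.0155, 0.0261, 0.0241 and 0.0275. Unlike DLC1, the genes NR5A2, FMNL2, OPTN, ANXA13 and KIAA1958 did not pass without JRMI 2 (edgeR adjusted p between 0.0832 and 0.130).

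Of the falls, GPD1 and PYCR3 passed in every fit that left out 1 library. GPD1, the cytosolic glycerol phosphate dehydrogenase that links glycolysis to triglyceride synthesis, measured 7.40, 3.58, 4.26 and 5.25 CPM in JRMI 1 to 4, against 10.1 to 14.2 CPM in the controls (median 11.5). GPD1 fell by 1.19 ± 0.21 log2 units (SE; edgeR adjusted p = 0.00181). Its 4 JRMI libraries held 105 counts in all, and none overlapped the controls. PYCR3, a pyrroline carboxylate reductase of proline synthesis, measured 7.40, 6.21, 6.49 and 6.20 CPM in JRMI 1 to 4, against 10.5 to 17.8 CPM in the controls (median 11.5). PYCR3 fell by 0.94 ± 0.18 log2 units (SE; edgeR adjusted p = 0.00413), again with no overlap. GPD1 was the single called member of 18 genes of fatty acid and triglyceride synthesis, where 1.09% of all features were called. CASP8, the caspase that starts death receptor apoptosis, measured 45.3, 35.1, 30.95 and 41.8 CPM in JRMI 1 to 4, against 41.1 to 68.9 CPM in the controls (median 60.8). CASP8 fell by 0.63 ± 0.14 log2 units (SE; edgeR adjusted p = 0.0176), and missed the threshold without JRMI 2 (edgeR adjusted p = 0.0947). JRMI 1 and JRMI 4 lay above the lowest control, and it was the 1 call among 20 genes of the apoptosis machinery, against 1.09% of all features. Of the 20, 15 had a log2 change below 0, as did 3640 of the 6943 features.

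The largest fall was that of CFAP70, an axonemal protein of motile cilia and flagella, at 0.218, 1.43, 0.741 and 0.954 CPM in JRMI 1 to 4 against 2.46 to 4.43 CPM in the controls (median 2.82). CFAP70 fell by 1.92 ± 0.41 log2 units (SE; edgeR adjusted p = 0.00937). It rests on 17 counts over the 4 JRMI libraries against 266 over the 8 controls. P2RX3, an ATP-gated ion channel, was at 1.09, 0.239, 1.67 and 1.43 CPM in JRMI 1 to 4 against 1.86 to 4.32 CPM in the controls (median 2.38), with JRMI 2 far below the other 3, and its log2 change of -1.28 became -0.99 without that library (edgeR adjusted p = 0.205). NEIL2, a DNA glycosylase that removes oxidised bases, measured 1.52, 1.67, 1.11 and 1.43 CPM in JRMI 1 to 4, against 2.02 to 4.65 CPM in the controls (median 3.56), and lost its call in 9 of the 12 fits that left out 1 library. GDPD1, a lysophospholipase D that forms lysophosphatidic acid, measured 0.436, 0.955, 1.30 and 0.795 CPM in JRMI 1 to 4, against 1.71 to 2.40 CPM in the controls (median 2.04). ENPP7, the alkaline sphingomyelinase, measured 2.18, 3.10, 3.15 and 4.77 CPM in JRMI 1 to 4, against 5.09 to 8.09 CPM in the controls (median 6.26). The 4 libraries of each of these genes lay below all controls, at levels under 5 CPM where a library held few counts. NEIL2, GDPD1 and ENPP7 fell by 1.24, 1.23 and 0.99 log2 units (edgeR adjusted p = 0.0424, 0.0238 and 0.0492). ENPP7 lost its call in 9 of the 12 fits that left out 1 library, and GDPD1 in 4. Without JRMI 2 none of the 3 passed (edgeR adjusted p between 0.0875 and 0.188). GDPD1 also missed the threshold with DESeq2 (DESeq2 adjusted p = 0.0634).

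IQCG, another axonemal protein, measured 5.01, 5.97, 5.56 and 2.70 CPM in JRMI 1 to 4, against 6.89 to 11.04 CPM in the controls (median 9.47), with JRMI 4 the lowest. B9D1, a protein of the ciliary transition zone, measured 3.70, 3.58, 3.89 and 3.50 CPM in JRMI 1 to 4, against 5.18 to 8.55 CPM in the controls (median 6.46), with the 4 JRMI libraries close together. MYL5, a myosin regulatory light chain, measured 3.27, 3.58, 3.34 and 3.34 CPM in JRMI 1 to 4, against 4.29 to 10.8 CPM in the controls (median 5.77). ANKRD65, an ankyrin repeat protein of unclear role, measured 3.05, 3.10, 3.71 and 3.34 CPM in JRMI 1 to 4, against 4.81 to 8.71 CPM in the controls (median 6.22). The log2 changes of these 4 lay between -0.99 and -0.88, and no library overlapped the controls. None of the 4 passed without JRMI 2 (edgeR adjusted p between 0.0611 and 0.0875). AMY2A, a pancreatic amylase, measured 3.05, 4.77, 3.71 and 2.23 CPM in JRMI 1 to 4, against 3.69 to 8.71 CPM in the controls (median 6.73). In it 2 JRMI libraries lay inside the control range, and AMY2A has near-identical copies in the amylase cluster, so its counts are uncertain. ALKBH8, a tRNA-modifying methyltransferase and oxygenase that the naming rule left out, measured 5.88, 9.79, 9.45 and 9.38 CPM in JRMI 1 to 4, against 12.1 to 17.2 CPM in the controls (median 15.9). Its log2 change was -0.84 (edgeR adjusted p = 0.00748), and it is named because it passed without JRMI 2 and with VROH 2 in the fit.

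**Figure D3:**
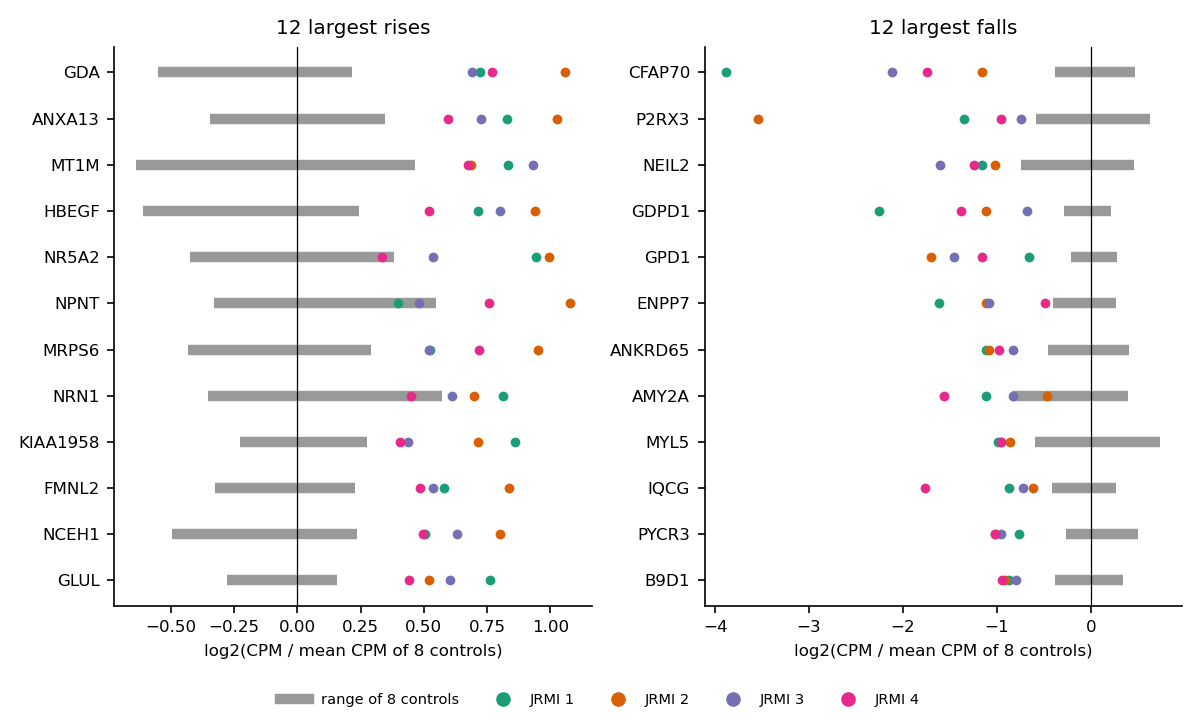
Log2 ratio of the CPM in JRMI 1 to 4 (coloured points) to the mean of the 8 controls for the 12 largest rises (left) and the 12 largest falls (right); grey bars span the 8 controls, and the horizontal scales of the 2 panels differ. JRMI 2 is the rightmost point in 8 of the 12 rises, and P2RX3 and CFAP70 show single libraries far below the other 3.

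No list held more than 3 members called against purified water, where 1.09% of all features were called, and list medians are given as a description. The 22 immediate early genes had a median log2 change of 0.37, with 17 above 0 and none called. For the 18 YAP targets it was 0.32, with 13 above 0 and DLC1 called, and for the 19 genes of the NRF2 antioxidant response 0.28, with 17 above 0 and none called. Without JRMI 2 these medians were 0.27, 0.23 and 0.17. AKR1C1, a reductase among the NRF2 targets, measured 1970.1, 3575, 2615 and 2627 CPM in JRMI 1 to 4, against 1229.6 to 2141 CPM in the controls (median 1912). NQO1, a quinone reductase, measured 2073, 2555, 2536 and 2249 CPM in JRMI 1 to 4, against 1546 to 2211 CPM in the controls (median 1848), at an edgeR adjusted p of 0.108. JRMI 1 lay inside the control range for both, and neither passed. At the other end, 25 of 27 DNA replication genes had a log2 change below 0, with a median of -0.25 and none called; without JRMI 2 the median was -0.19. MCM4, a helicase subunit, measured 50.1, 16.9, 44.9 and 41.7 CPM in JRMI 1 to 4, against 27.2 to 70.7 CPM in the controls (median 47.1), with JRMI 2 alone below the controls. POLA2, a subunit of the polymerase that primes replication, measured 8.49, 3.10, 7.41 and 7.95 CPM in JRMI 1 to 4, against 7.28 to 16.2 CPM in the controls (median 13.5), and its log2 change of -0.91 did not pass (edgeR adjusted p = 0.174). The 25 mitosis genes had a median of 0.06, and MKI67, a marker of cycling cells, measured 63.2, 85.5, 73.6 and 71.9 CPM in JRMI 1 to 4, against 46.99 to 65.7 CPM in the controls (median 63.2).

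**Figure D4:**
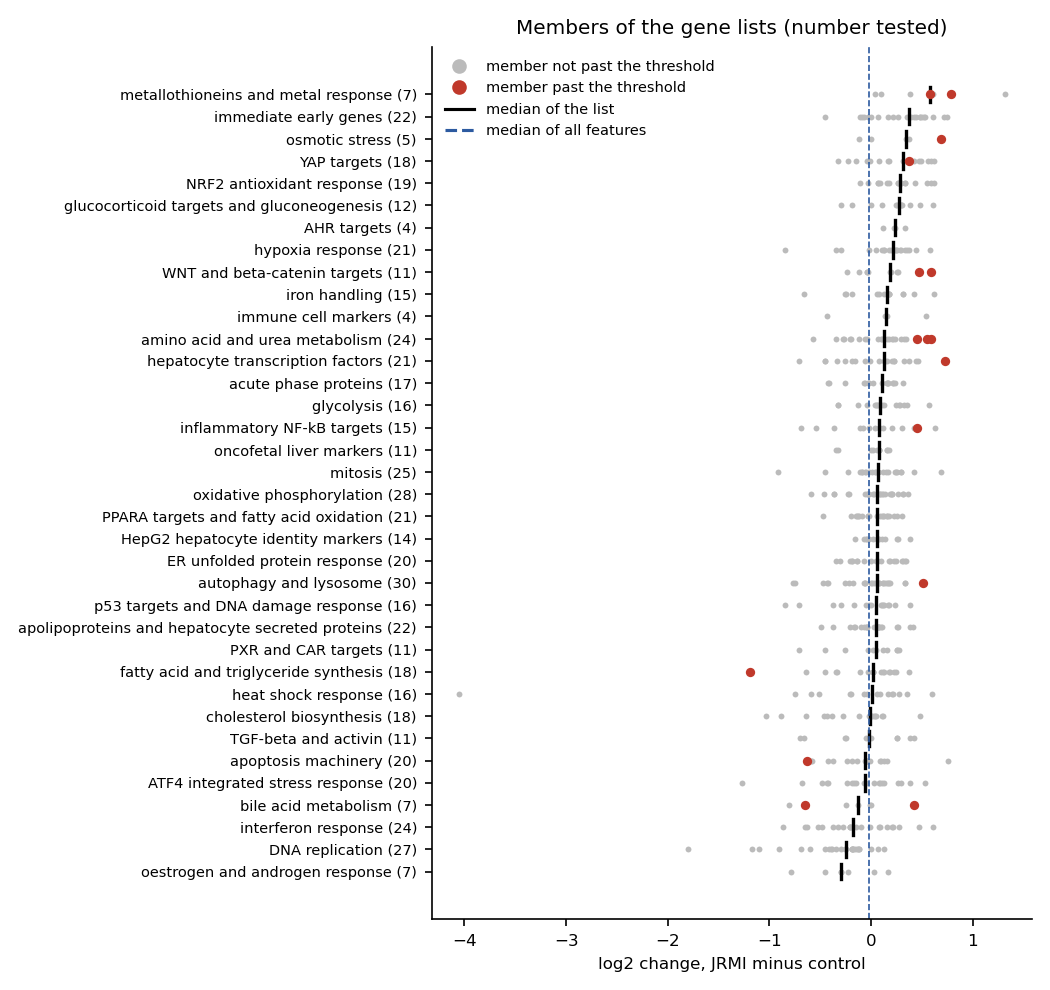
Log2 change between JRMI and purified water for each member (points) of the gene lists with at least 4 members tested (number in brackets); black bars are list medians, the dashed line the median of all features, and red points the members that passed. The list medians run from -0.29 to 0.58, and no list holds more than 3 red points.

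Several genes fixed for this comparison did not pass. CYP1A1, the main target of the aryl hydrocarbon receptor, measured 169, 12.9, 76.5 and 102 CPM in JRMI 1 to 4, against 57.4 to 97.4 CPM in the controls (median 77.2). JRMI 1 lay above all controls and JRMI 2 below all of them, and CYP1A1 was among the 76 features low in JRMI 2. Its log2 change was 0.23 ± 0.47 and was -0.25 without JRMI 1 and 0.60 without JRMI 2. HMOX1, the stress-induced haem oxygenase, measured 28.96, 21.96, 26.5 and 26.7 CPM in JRMI 1 to 4, against 22.3 to 30.8 CPM in the controls (median 26.02). DDIT3, a transcription factor of the unfolded protein response, measured 112, 135, 117 and 99.2 CPM in JRMI 1 to 4, against 95.9 to 126 CPM in the controls (median 108). The iron hormone gene HAMP measured 13.3, 17.9, 20.8 and 18.4 CPM in JRMI 1 to 4, against 16.5 to 28.2 CPM in the controls (median 21.2). Albumin, ALB, measured 51925, 54814, 42934 and 60303 CPM in JRMI 1 to 4, against 40199 to 74990.0 CPM in the controls (median 52487). CPT1A, which brings fatty acids into mitochondria, measured 28.7, 43.9, 30.8 and 30.4 CPM in JRMI 1 to 4, against 20.98 to 39.2 CPM in the controls (median 30.2), with JRMI 2 alone above the controls. CDKN1A, a p53 target, measured 1.09, 0.716, 0.371 and 0.954 CPM in JRMI 1 to 4, against 0.997 to 1.97 CPM in the controls (median 1.40). The groups overlapped in all 7 of these genes. ASNS and PSAT1, amino acid enzymes under ATF4, had larger changes that varied among the JRMI libraries. ASNS measured 17.6, 4.06, 16.7 and 37.2 CPM in JRMI 1 to 4, against 16.8 to 70.9 CPM in the controls (median 46.1). PSAT1 measured 38.98, 23.9, 41.5 and 60.4 CPM in JRMI 1 to 4, against 48.3 to 81.5 CPM in the controls (median 67.1). Their log2 changes were -1.27 ± 0.53 and -0.68 ± 0.27 (edgeR adjusted p = 0.292 and 0.255), with JRMI 2 the lowest in both. PLPPR1 measured 42.0, 46.1, 42.8 and 41.0 CPM in JRMI 1 to 4, against 30.9 to 40.5 CPM in the controls (median 37.0). The groups did not overlap, but its log2 change of 0.24 did not pass (edgeR adjusted p = 0.395). In the contrast with the other sites, described next, it passed at 0.48 (edgeR adjusted p = 0.00105), also without JRMI 2 (edgeR adjusted p = 0.0264).

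JRMI was also set against the unweighted mean of the other 15 sites in the same fit, which leaves the controls out of the contrast. Of the 6943 features, 273 passed (3.93%), 200 higher at JRMI (2.88%) and 73 lower (1.05%). JRMI had the highest mean of the 16 sites in 64 of the 200 rises and the lowest in 34 of the 73 falls. A call in this contrast itself favours such a rank, and the share over all features is not given. JRMI 2 was the highest JRMI library in 136 of the 200 rises (68.0%), and the count fell to 47 (0.676%) without it. It was 154 without JRMI 1, 98 without JRMI 3, 174 without JRMI 4 and 76 with VROH 2 in the fit. Without VROH 2, CRMI 1 and SRMI 3 it was 644 (9.31%), and without these and JRMI 2 it was 250 (3.61%).

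YAP targets gave 6 of the 200 rises among 18 tested (ANKRD1, CCN2, IGFBP3, AJUBA, LATS2 and DLC1) and no fall, where 2.88% of all features rose. Without JRMI 2 all but LATS2 still passed (edgeR adjusted p = 0.0984 for LATS2). The 18 targets had a median log2 change of 0.40, against -0.01 over all features. ANKRD1, a cardiac ankyrin repeat protein that is also found in the nucleus, lies on chromosome 10 at 90912096 to 90921276 on the minus strand (GENCODE release 29, GRCh38). CCN2, a secreted matricellular protein also called CTGF, lies on chromosome 6 at 131948176 to 131951373 on the minus strand. TEAD factors, through which YAP acts, bind the motif GGAATG, here searched as GGAATG and its reverse complement CATTCC in the 250 bases before the RefSeq start (GRCh38.p14). The promoters of these genes are shown because they had the largest log2 changes of the YAP targets against the other sites. Matches are in capitals, read 5′ to 3′ on the gene's strand. The windows are chr10:90921088-90921337 for ANKRD1 and chr6:131951373-131951622 for CCN2. They were set by the RefSeq starts, which differ from the GENCODE positions above. The GENCODE span of ANKRD1 reaches to 90921276, so part of its window lies within that span.
ANKRD1: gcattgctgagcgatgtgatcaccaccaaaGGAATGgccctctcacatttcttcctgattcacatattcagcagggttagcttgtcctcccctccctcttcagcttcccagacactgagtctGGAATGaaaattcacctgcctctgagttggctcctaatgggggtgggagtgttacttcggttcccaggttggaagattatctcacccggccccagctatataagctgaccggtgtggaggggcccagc
CCN2: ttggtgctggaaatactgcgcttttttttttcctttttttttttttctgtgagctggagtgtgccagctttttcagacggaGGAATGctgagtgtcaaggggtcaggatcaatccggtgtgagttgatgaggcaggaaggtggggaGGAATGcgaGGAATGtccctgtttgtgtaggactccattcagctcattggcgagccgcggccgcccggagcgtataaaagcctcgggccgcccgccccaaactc
ANKRD1 held 2 matches, whose first bases lie 220 and 128 bases before the start, and CCN2 held 3, at 169, 104 and 95. Of 35116 promoters in the table, 11.9% held at least 1 match, 0.94% at least 2 and 0.0826% at least 3. A promoter was listed for 13 of the 18 YAP targets, and 4 of the 13 held a match: ANKRD1, CCN2, NUAK2 and PTPN14. AJUBA, IGFBP3 and LATS2 held none. A match is a description of the letters and says nothing on binding in these cells.

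Against the other sites ANKRD1 had a log2 change of 1.08 ± 0.13 (edgeR adjusted p = 8.26e-08) and CCN2 of 0.89 ± 0.16 (edgeR adjusted p = 4.13e-04). Both passed without JRMI 2, at 1.09 and 0.92. ANKRD1 measured 671, 665, 763 and 584 CPM in JRMI 1 to 4, against 370.4 to 685 CPM in the controls (median 484). CCN2 measured 552, 435, 515 and 347 CPM in JRMI 1 to 4, against 258 to 487 CPM in the controls (median 291). Against purified water neither passed, with log2 changes of 0.47 and 0.56 (edgeR adjusted p = 0.178 and 0.199), and in both genes the highest control lay among the JRMI libraries. The site means of ANKRD1 fell into separate bands on either side of the control mean of 484 CPM. FRWI at 731, LRMN at 703, JRMI at 671, BRWI at 667, GRNY at 665, CROH at 658 and VROH at 567 CPM lay above it, and the other 9 sites lay between 152 and 286 CPM. For CCN2 the sites above the control mean of 314 CPM were LRMN at 741, GRNY at 542, JRMI at 462, FRWI at 454, BRWI at 443, CROH at 413 and VROH at 398 CPM, and the other 9 lay between 126 and 234 CPM. JRMI ranked 3rd in both genes.

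The other YAP targets that passed were IGFBP3, AJUBA, LATS2 and DLC1. IGFBP3, a binding protein of insulin-like growth factors, measured 574, 514, 540.1 and 533 CPM in JRMI 1 to 4, against 316 to 427 CPM in the controls (median 391), and changed by 0.69 log2 units against the other sites (edgeR adjusted p = 6.70e-04). JRMI had the highest mean of the 16 sites. AJUBA, a LIM protein that restrains the LATS kinases, measured 117, 137, 125 and 112 CPM in JRMI 1 to 4, against 68.2 to 106 CPM in the controls (median 99.5), with a log2 change against the other sites of 0.47 (edgeR adjusted p = 0.00134). LATS2, a kinase that inhibits YAP, measured 38.98, 28.4, 28.9 and 23.8 CPM in JRMI 1 to 4, against 14.1 to 31.98 CPM in the controls (median 18.7), with a log2 change of 0.67 (edgeR adjusted p = 0.0254). For IGFBP3 and AJUBA the 4 JRMI libraries lay above all controls, while LATS2 overlapped them. DLC1 was also highest at JRMI among the 16 sites, at a log2 change of 0.39 ± 0.07 (edgeR adjusted p = 4.13e-04), and was the single YAP target that passed against both purified water and the other sites. CCN1, another listed target, did not pass against the other sites, at 0.69 (edgeR adjusted p = 0.239), and changed by -0.04 against purified water. AREG, F3, NT5E and ARHGEF17 had log2 changes of -0.46, -0.29, -0.18 and -0.11 against the other sites, and none passed.

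**Figure D5:**
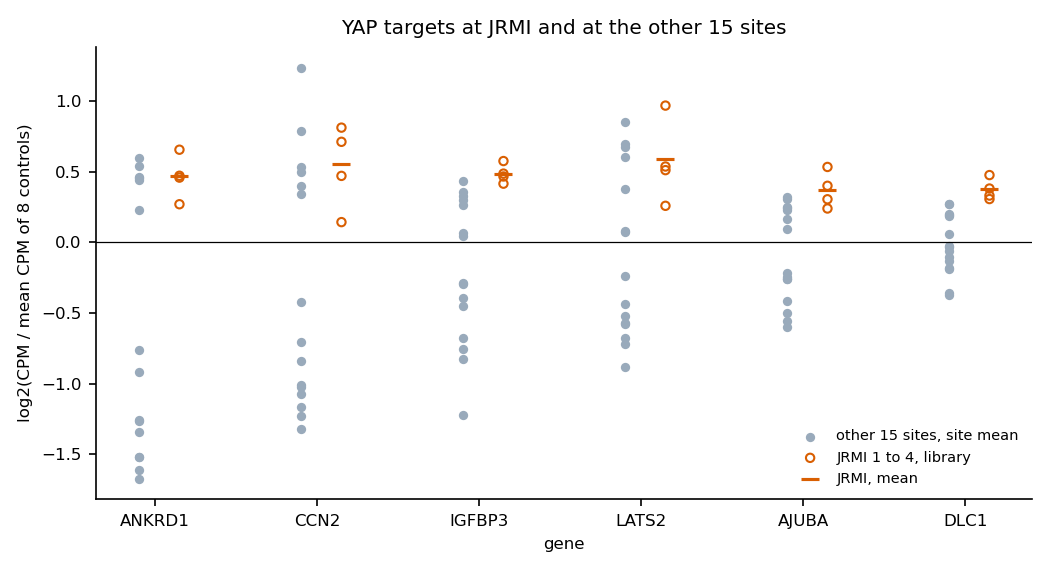
Log2 ratio to the mean of the 8 controls of the 6 YAP targets called between JRMI and the other sites; grey points are the means of the other 15 sites, open circles the JRMI libraries and the dash their mean. For ANKRD1 and CCN2 the site means leave a gap around the controls, with 6 other sites above the control mean and 9 below it.

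The other rises named by size against the sites had varied roles. PIM1, a serine kinase, measured 28.96, 43.7, 35.8 and 29.7 CPM in JRMI 1 to 4, against 15.4 to 28.99 CPM in the controls (median 18.8). DUSP8, a phosphatase of stress kinases, measured 30.3, 86.4, 50.2 and 39.4 CPM in JRMI 1 to 4, against 19.1 to 41.01 CPM in the controls (median 29.3). Their log2 changes against the other sites were 0.97 and 0.87 (edgeR adjusted p = 0.00173 and 0.00571), JRMI 2 was the highest library in both, and neither passed without it. FTL, the ferritin light chain, measured 329, 469, 418 and 294 CPM in JRMI 1 to 4, against 172 to 345 CPM in the controls (median 226). IFITM1, an interferon-induced membrane protein, measured 119, 132, 184 and 142 CPM in JRMI 1 to 4, against 72.2 to 123 CPM in the controls (median 98.8). FTL has pseudogene copies, so its counts are uncertain. ANKRD37, a target of hypoxia-inducible factors, measured 394, 553, 512 and 441 CPM in JRMI 1 to 4, against 231 to 393 CPM in the controls (median 361), and had the highest mean of the 16 sites. It was 1 of 5 rises among 21 hypoxia genes, where 2.88% of all features rose, the others being CA9, NDRG1, LOX and JMJD6, and none of the 21 passed against purified water. CCNB1IP1, a ubiquitin ligase of meiotic crossing over, measured 64.7, 116, 89.7 and 78.4 CPM in JRMI 1 to 4, against 47.8 to 73.8 CPM in the controls (median 65.4). LIPH, a phospholipase, measured 8.93, 14.6, 10.4 and 11.6 CPM in JRMI 1 to 4, against 6.11 to 8.34 CPM in the controls (median 6.65). JRMI 2 was the highest library in both. FTL, IFITM1, ANKRD37, CCNB1IP1 and LIPH changed by 0.73, 0.73, 0.70, 0.71 and 0.83 log2 units against the other sites. They did not pass there without JRMI 2 (edgeR adjusted p between 0.0665 and 0.198). Against purified water none of these genes passed, nor did PIM1 and DUSP8 (edgeR adjusted p between 0.0648 and 0.420). MT1M and MT1G, which rose against purified water, did not pass against the other sites, nor did any other of the 7 metallothionein and metal response genes. MT1M ranked 9th and MT1G 10th of the 16 site means, with log2 changes of -0.21 and -0.25. The site means of MT1M, MT1G and MT2A lay above the control mean at all 15 other sites. Those of MT1F and MT1X did so at 14 of the 15, and that of MT1E at 2.

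Genes that rose or fell against purified water differed in how far JRMI stood out among sites. Of the 76, 61 also passed against the other sites, which is 80.3% of the 76 and 22.3% of the 273, though both contrasts use the JRMI libraries. JRMI had the highest mean of the 16 sites in 10 of the 48 rises and the lowest in 12 of the 28 falls. Here too a call favours such a rank, and the share over all features is not given. HBEGF was second to LRMN, at a JRMI mean of 58.6 CPM against 76.8, and GLUL came behind LRMN and CROH, at 227 CPM against 244 and 234. GPD1 was lower at LRMN alone, at 4.26 CPM against 5.12 at JRMI, and PYCR3 was lowest at JRMI, at 6.57 CPM, with LRMN next at 7.08. Other sites came close. GPD1 lay between 6.02 and 7.05 CPM at GRNY, FRWI, BRWI, CROH and VROH, against a control mean of 11.7. PYCR3 lay between 7.26 and 8.38 CPM at GRNY, CROH and FRWI, against 12.6. The site mean lay above the control mean at 7 of the other 15 sites for HBEGF and GLUL, and below it at 7 for GPD1 and PYCR3. CCL20 and MRPS6 ranked 4th and did not pass against the other sites, with log2 changes of 0.18 and 0.23. The site mean lay above the control mean at all 15 other sites for MRPS6, at 14 for NRN1 and at 13 for CCL20.

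The largest falls against the other sites lay in genes at a few CPM or less, while smaller ones such as BAAT and CASP8 lay at higher levels. CYP17A1, a steroid hydroxylase and lyase, measured 2.83, 1.43, 2.78 and 2.38 CPM in JRMI 1 to 4, against 3.16 to 6.78 CPM in the controls (median 4.17), and its log2 change against the other sites was -1.12 ± 0.27 (edgeR adjusted p = 0.00989). CYP2D6, a drug-metabolising enzyme with near-identical neighbours, held 4 counts in the 4 JRMI libraries together, so its log2 change of -2.34 is uncertain. PNPLA4, a retinol and triglyceride lipase, held 9 counts. The other named falls, JMJD4, PKN3, OVCA2, ENSA, LOC107984126 and ARID5A, lay at or below 1.43 CPM in every JRMI library, with log2 changes between -1.53 and -1.25. None of these 9 falls passed without JRMI 2.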

How the data were processed

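RNA of HepG2 dishes was assayed with TempO-Seq, and the submitters' processing notes name Salmon and GRCh38; its version, the probes' positions and any scaling were not given in the sources used here. Deposited values were named as normalized but are estimated counts: values under 20 were whole multiples of the value of 1 read, to within 0.02, in 93.5% of cases in the median library. Only symbols sorted before RAI14, 31012 entries, were held, and later ones were not analysed here.

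The rounded counts went into edgeR 4.0.16 under R 4.3.3 (quasi-likelihood test, TMM scaling, filterByExpr with a minimum count of 10; 6943 of 12425 features kept). The model had 1 mean per group over 70 libraries and 53 residual degrees of freedom. VROH 2 was left out of this fit for its low total. P values were Benjamini-Hochberg adjusted over all features tested and called under 0.05. Errors of log2 changes are standard errors. The procedure was tested on simulated counts drawn independently for each feature and library. These held no library set apart like JRMI 2 or CRMI 1, so that test does not bear on the dependence on single libraries.

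Members, gene lists, named genes and the choice to leave out VROH 2 were fixed with earlier results of these data known, so none of them is independent support. Named genes were the 12 largest rises and falls called in each contrast with a mean of at least 1 CPM, all 4 JRMI libraries on 1 side of the comparison mean and no library low by the rule for JRMI 2, up to 5 called members per list, and 20 fixed genes. Alternatives were all 71 libraries, fits without VROH 2, CRMI 1 and SRMI 3, RLE factors, DESeq2 1.42.0, no filter, the replicate number as a block, the 12 libraries alone, and each library left out; a fit that also left out JRMI 2 was added after seeing the data. Positions were read from GENCODE release 29 and promoters from RefSeq.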

Additional observations from a re-analysis of the deposited data

Results flagged for a closer look

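Of 136 groups of values examined, 10 held a library set apart from the rest of its group by a gap that is large against the group's range; chance marks about 1 group in 20. CTRL 5 was the lowest control by such a gap in 4 genes: ANKRD37 at 231.2 CPM against 337.5 to 393.5 in the other controls, ARG2 at 121.0 against 182 to 227, HBEGF at 22.9 against 33.6 to 41.2 and NCEH1 at 117.4 against 160.2 to 195. CTRL 1 was the highest control for NPNT, at 27.8 CPM against 15.2 to 19.6, and for NRN1, at 8.29 against 4.37 to 6.02. CTRL 7 was the highest for CCN2, at 486.5 CPM against 258 to 349, CTRL 8 for CYP2D6, at 2.96 CPM against 0.225 to 1.47, and CTRL 3 for LOC107984126, at 3.81 CPM against 2.14 to 2.72. Among the JRMI libraries, CPT1A was highest in JRMI 2, at 43.9 CPM against 28.7 to 30.8.

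The contrast of JRMI with the mean of the other 15 sites is itself a difference between groups under the same treatment design, and edgeR's quasi-likelihood test passed 273 features in it.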

How the results depend on the processing

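The number of features called between JRMI and purified water moved with most choices: from 76 to 9 with all 71 libraries, to 201 without VROH 2, CRMI 1 and SRMI 3, to 115 with DESeq2, to 17 with no filter on low counts and to 139 with the 12 libraries alone, while RLE factors gave 78. Leaving out 1 library at a time gave 13 to 81, and for the other sites 47 to 275. Between JRMI and the other sites the count went from 273 to 76 with all 71 libraries, to 644 without VROH 2, CRMI 1 and SRMI 3 and to 123 with no filter. Without VROH 2, CRMI 1, SRMI 3 and JRMI 2 together, a fit chosen after seeing the data, the counts were 72 (44 of the 76 among them) and 250. The cause was not tested. With the replicate number as a block, 4 features passed against purified water (GPD1, HBEGF, MT1G and MT1M) and 269 against the other sites. In that fit CTRL 5 to 8, whose numbers no site library carried, each had a term of their own. It therefore compared JRMI with CTRL 1 to 4 only, and its count reflects fewer controls as well as the block. MRPS6, PYCR3 and CCL20 did not pass in it (edgeR adjusted p = 0.080, 0.080 and 0.169). Same-numbered JRMI and control libraries did not all deviate together (correlations of -0.51, -0.11, 0.37 and 0.64 for numbers 1 to 4; JRMI 3 and 4 correlated best with their own number, JRMI 1 with CTRL 4 at 0.51 and JRMI 2 with CTRL 1 at 0.74), so the numbers were not taken as pairs.

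Of the 34 named genes called against purified water, 11 kept the call without JRMI 2 and 7 with all 71 libraries, and none changed direction in any setting. Direction changed only in uncalled genes: CYP1A1 (-0.25 to 0.60 with 1 library left out), HMOX1 (-0.0881 to 0.0497 with 1 library left out, 0.0827 with the block and 0.049 without the 4 libraries), ALB (-0.13 to 0.0341) and CPT1A (-0.0258 to 0.18, and -0.026 without the 4 libraries). The features low in JRMI 2 numbered 192 at a drop of 2 log2 units, 15 at 4, and 47 where at least 30 CPM was required. JRMI libraries held fewer counts than controls, and the fall of CFAP70 rests on 17 counts at JRMI.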

Other observations

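Other features that passed against purified water, named after their values were seen, included abundant genes with small, even rises. PEBP1, an inhibitor of RAF kinase, measured 6519, 5653, 5402 and 5224 CPM in JRMI 1 to 4, against 3739 to 5106 CPM in the controls (median 4086), with a log2 change of 0.42 (edgeR adjusted p = 0.0382). FZD5, a WNT receptor, measured 123, 134, 123 and 132 CPM in JRMI 1 to 4, against 72.5 to 104 CPM in the controls (median 89.6), and DPYSL2, a microtubule-binding protein, 1561, 1851, 1710.2 and 1633 CPM in JRMI 1 to 4, against 900.5 to 1364 CPM in the controls (median 1242). In these 3 genes no JRMI library reached down to the highest control, and none of the 3 passed without JRMI 2.

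Among the falls, DYNC2LI1, a light intermediate chain of the dynein of cilia, measured 32.7, 38.9, 37.4 and 33.9 CPM in JRMI 1 to 4, against 57.7 to 74.3 CPM in the controls (median 60.8), with a log2 change of -0.82 (edgeR adjusted p = 0.0261). HEMK1, a methyltransferase of a mitochondrial release factor, measured 8.71, 8.83, 10.6 and 9.22 CPM in JRMI 1 to 4, against 13.6 to 19.9 CPM in the controls (median 16.5), and BCAT1, the cytosolic aminotransferase of branched-chain amino acids, 62.7, 74.00, 63.8 and 88.7 CPM in JRMI 1 to 4, against 93.5 to 109.9 CPM in the controls (median 103). NEDD4, a ubiquitin ligase, measured 16.1, 14.1, 15.2 and 17.01 CPM in JRMI 1 to 4, against 21.7 to 24.5 CPM in the controls (median 23.4). The groups did not overlap in any of these 4 genes, and the JRMI values of NEDD4 and HEMK1 lay close together. None of the 4 passed without JRMI 2 (edgeR adjusted p between 0.054 and 0.171).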
